A study of Mus musculus with 3 samples.

Results

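The Tle4cKO library was compared with the WT library, gene by gene, in macrophages sorted from mouse colon. The members of the comparison are the 11088 of 23997 genes that had a mean of at least 1 FPKM (a read density corrected for transcript length and for the size of the library) over these 2 libraries. WT mice were C57BL/6 males that carried Lyz2-Cre alone, and Tle4cKO mice had Tle4f/f with the same Lyz2-Cre, so the control also expressed Cre recombinase. The third library, labelled Tle3cKO (Tle3f/f with Lyz2-Cre), shares the WT control and is given beside the others as a level only. All mice were untreated, aged 9 weeks by the protocol and 8.9 weeks by the sample's own entry. The sorted cells lacked Siglec-F, were low for Ly6C and carried CD64. They were pooled from 4 WT, 3 Tle3cKO and 4 Tle4cKO mice, which leaves 1 library per genotype. No spread between replicates was measured, so every value is given without an error and nothing was tested.

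Tle4 encodes a corepressor of the Groucho family. These proteins do not bind DNA themselves. They are recruited by DNA-binding factors such as the HES, RUNX and TCF proteins and hold target genes down together with histone deacetylases. Macrophages of the colon wall take up dying cells and bacteria, are restrained in their response to microbial products, and are largely renewed from blood monocytes, which lose Ly6C as they mature. Lyz2-Cre acts in myeloid cells, so lymphocytes, epithelium or glia that pass a sort keep the floxed gene. The comparison asks which transcripts differ in colonic macrophages when Tle4 is targeted in that lineage.

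Every ratio below is a log2 ratio of Tle4cKO to WT on FPKM plus a pseudocount of 1, and groups of 3 FPKM values are in the order WT, the library labelled Tle3cKO, Tle4cKO. Few genes were far apart. In Tle4cKO 22 genes were at least 2-fold higher (0.198% of those tested) and 54 were at least 2-fold lower (0.487%). At 1.5-fold the counts were 140 higher (1.26%) and 189 lower (1.7%). Of all genes, 5472 were higher by any amount (49.4%) and 5616 lower (50.6%), with a median of -0.0027. The counts given for each group below are to be read beside these shares. With the totals of the 2 libraries made equal after leaving out immunoglobulin, T cell receptor, small RNA, ribosomal protein and histone genes, 6585 were higher and 4357 lower, so counts of small differences depend on the scaling. The standard deviation of the ratio over genes was 0.33 at mean levels of 1 to 5 FPKM and 0.18 at 20 to 100 FPKM. At 100 FPKM and above it was 0.46, with the small RNAs Snora23 (8.16) and Snora81 (-9.51) included. Most ratios at that level lay between -0.36 and 0.23, and genes other than these small RNAs, such as Ccl5 and Plin2, lay outside that range. These spreads describe genes and not replicates. Of the 22 higher genes, 8 were listed at 0 in WT and 4 reached 1 FPKM in both libraries. Of the 54 lower genes 3 were listed at 0 in Tle4cKO and 31 reached 1 FPKM in both. The lower genes closest to the threshold were Plet1os and Cryab (-1.003 and -1.01), with 4930539J05Rik and Cyr61 just short of it (-0.997 and -0.99). On the higher side, the row that joins Amd1 and Amd2 (1.15) was inside and Apoc4 (0.98) outside. Of these, 12 of the 22 and 38 of the 54 were in none of the 34 gene lists used here.

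**Figure D1:**
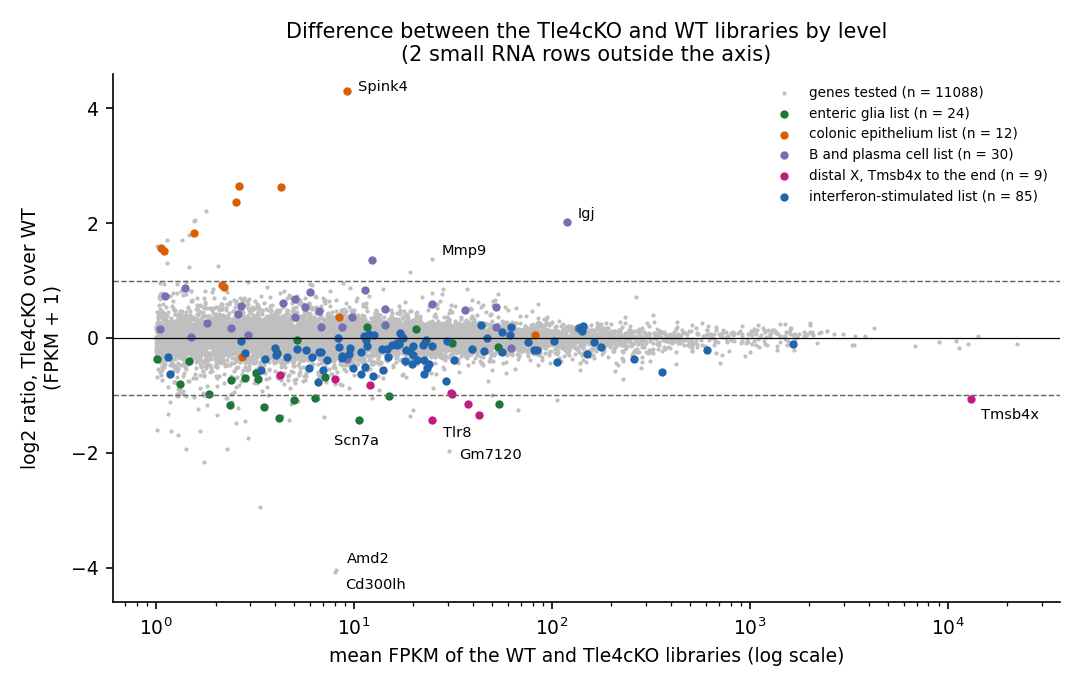
Log2 ratio of Tle4cKO to WT (FPKM + 1, vertical axis) against the mean FPKM of the 2 libraries (horizontal axis, log scale) for the 11088 genes tested, with 5 groups in colour and dashed lines at 2-fold. Epithelial and plasma cell genes lie at the top, glial and distal X genes at the bottom, and the interferon-stimulated genes form a band just below zero; Snora23 and Snora81 are outside the axis.

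The targeted gene was lower in Tle4cKO, though by less than 2-fold. Tle4 (chromosome 19, 14448072 to 14597983, mm10) was at 8.499, 11.01 and 5.798 FPKM, a ratio of -0.48. These are values of whole genes, in which deleted exons are not seen separately. The 54 other genes tested within 5 Mb on each side of Tle4 had a median of -0.0028 and ranged from -0.78 to 0.54, so no gene near the floxed locus passed 2-fold. Among the relatives, Tle3 was at 38.6, 70.7 and 46.9 FPKM (0.27). Its value in the library labelled Tle3cKO is the highest of the 3, although Tle3 is the gene targeted there. Whole-gene values cannot show whether its exons were deleted. The short family member Aes was at 83.5, 70.7 and 75.2 FPKM (-0.15), and Tle1 was at 34.3, 42.3 and 32.4 FPKM (-0.08). Of the 6 Groucho genes 3 were higher and 3 lower, and none reached 1.5-fold.

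DNA-binding partners of Groucho and targets of their pathways showed no common direction. Of 30 listed, 23 were measured, 10 of them higher and 13 lower, with a median of -0.07. The Notch-induced repressors were among the lowest. Heyl was at 1.87, 1.58 and 0.889 FPKM (-0.60), Hey1 at 3.17, 4.03 and 1.91 FPKM (-0.52) and Hes1 at 49.3, 49.1 and 36.99 FPKM (-0.41). None of the 3 was as low in the library labelled Tle3cKO as in Tle4cKO. The other extreme was held by Tcf7, a TCF factor of lymphocytes, at 1.86, 4.22 and 3.55 FPKM (0.67), and by Nrarp, a Notch feedback gene, at 1.14, 1.34 and 2.201 FPKM (0.58). Runx1, Runx2 and Runx3, the RUNX factors, differed by at most -0.09, and Rbpj, the DNA-binding protein of the Notch pathway, by 0.08. Markers of glia and of lymphocytes also differed between these libraries, as described further on, and their part in the values of Hey1, Heyl and Tcf7 was not tested. In pooled cells, fewer cells of a type and less RNA per cell cannot be told apart.

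A run of 9 neighbouring genes at the distal end of the X chromosome was lower in Tle4cKO. It spans the tested genes from Tmsb4x to the last one, positions 167207094 to 169990797. Its start was set at Tmsb4x with the values known, so the count of lower genes follows in part from that choice. All 9 were lower, with a median ratio of -0.97, while on the rest of the X chromosome 169 of 314 were lower, with a median of -0.01. Tmsb4x, the actin-sequestering thymosin beta 4 and among the most abundant transcripts, was at 17707, 7563 and 8520.0 FPKM (-1.06). It had the largest decrease in FPKM of any gene. The endosomal receptors for single-stranded RNA lie beside it, with Tlr7 (chromosome X, 167304926 to 167330571) at 61.8, 29.01 and 23.95 FPKM (-1.33) and Tlr8 at 36.8, 11.2 and 12.99 FPKM (-1.43). Hccs, which attaches haem to cytochrome c, was at 41.98, 23.8 and 20.97 FPKM (-0.97). Msl3, of the MSL chromatin complex, was at 15.6, 9.59 and 8.43 FPKM (-0.82), and Arhgap6, a GTPase-activating protein, was at 10.3, 4.41 and 5.89 FPKM (-0.71). Prps2, an enzyme of nucleotide synthesis, was at 5.39, 2.98 and 3.103 FPKM (-0.64). In each of these 7 genes WT was the highest library, and both others were lower.

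The last 2 genes of the run have the same position in the files, so their reads may be shared. Mid1, an E3 ubiquitin ligase that binds microtubules, was at 41.1, 49.5 and 20.6 FPKM (-0.96) and was highest in the library labelled Tle3cKO. G530011O06Rik was at 52.4, 26.1 and 22.97 FPKM (-1.16). Without a pseudocount, WT stood at 1.74 to 2.83 times Tle4cKO over the 9 genes, with a median of 2.002. Rab9 (0.16), Trappc2 (0.42) and Ofd1 (-0.06), the nearest tested genes before Tmsb4x, were not lower to such a degree. Rab9 starts at 166457252 and Tmsb4x at 167207094, with no tested gene between them. The border is not placed more finely than that. Gpm6b, a little further away, was at 7.09, 8.27 and 2.85 FPKM (-1.07) and belongs to the glial genes described below. Over all runs of 8 neighbouring tested genes, the lowest median was -1.01, in this run, and the 10932 runs that do not touch it had medians from -0.37 to 0.64. Erdr1, which lies in the region shared by X and Y and is placed on Y in the files, was at 95.2, 367 and 39.5 FPKM (-1.25).

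**Figure D2:**
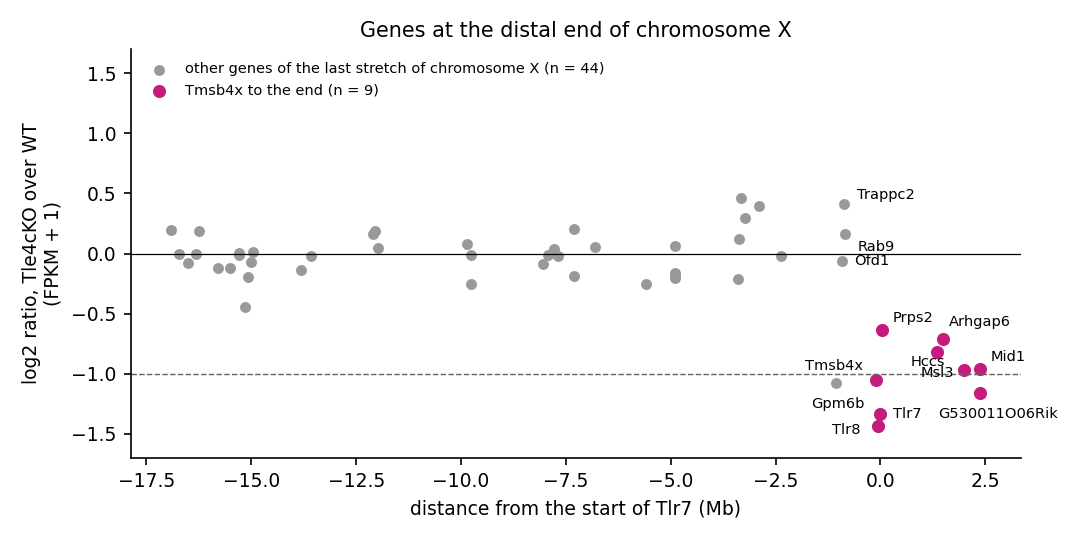
Log2 ratio of Tle4cKO to WT (FPKM + 1) for tested genes at the end of the X chromosome, by distance from the start of Tlr7 in Mb. The 9 genes from Tmsb4x onward (pink) lie between -1.43 and -0.64, and the grey genes before them lie around zero except for the glial gene Gpm6b.

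Interferon-stimulated genes were lower as a group by small amounts. These genes are switched on when interferons bind their receptors, JAK kinases activate STAT proteins, and these join IRF9 on a DNA element with paired GAAA blocks. Of 86 listed genes 85 were measured and 71 were lower, where 50.6% of all genes were lower. Their median was -0.21 beside -0.0027 over all genes. Of these, 6 were at least 1.5-fold lower, beside 1.7% of all genes. None was at least 1.5-fold higher, and none reached 2-fold. With the other scalings the count of lower members was 67 to 70.

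The medians differed between the genes' roles. The 10 receptors and signal transducers had a median of -0.06, and 7 of them were lower; with the scaling that leaves out the 5 kinds of gene named above, 5 were lower. Stat2 was at 16.9, 16.8 and 15.9 FPKM (-0.08) and the kinase Jak2 at 87.1, 72.3 and 74.96 FPKM (-0.21). The receptor chain Ifnar1 was at 54.2, 54.2 and 58.5 FPKM (0.11) and Ifngr1 at 131, 139 and 148 FPKM (0.18). The 14 regulators and sensors had a median of -0.22. Irf7, the factor that amplifies type I interferon and is itself induced by it, was at 36.96, 21.4 and 21.7 FPKM (-0.74; chromosome 7, 141263183 to 141266424). Its value in WT stood above both other libraries, which were level with each other. Ifih1, the cytosolic RNA sensor MDA5, was at 20.8, 15.7 and 15.5 FPKM (-0.40), and Mb21d1, the DNA sensor cGAS, at 4.15, 3.53 and 3.0 FPKM (-0.36). Irf8, a lineage factor of myeloid cells, went the other way at 136, 119 and 148 FPKM (0.12), as did Trim25 at 133, 128 and 154 FPKM (0.21).

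Of 47 measured antiviral effectors 41 were lower, with a median of -0.26. The oligoadenylate synthetases, which make the signal that activates RNase L, were lower in all 7 measured cases, with a median of -0.52. Oas1g was at 8.58, 4.899 and 4.66 FPKM (-0.76), Oas2 at 8.52, 5.37 and 5.46 FPKM (-0.56), Oas3 at 7.13, 6.51 and 4.69 FPKM (-0.52) and Oasl1 at 121, 80.1 and 90.5 FPKM (-0.41). Rtp4, a chaperone-like protein induced by interferon, was at 15.5, 9.16 and 9.49 FPKM (-0.65), and Ifit3, which binds viral RNA together with its relatives, was at 27.5, 16.4 and 17.5 FPKM (-0.63). Ifi27l2a, at 434, 254 and 289 FPKM (-0.58), was one of the most abundant. The ubiquitin-like modifier Isg15 was at 164, 116 and 135 FPKM (-0.28). For Rsad2, the antiviral enzyme viperin, the values were 47.3, 39.1 and 47.2 FPKM, and for Ifit1 they were 17.5, 15.9 and 16.3 FPKM (-0.10), so not every effector was lower by a similar amount. Samhd1, a dNTP hydrolase, was at 57.9, 47.2 and 66.1 FPKM (0.19), and Sp140 had the highest ratio, 0.22.

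The measured genes listed as GTPases of the IRG and GBP families, which attack the vacuoles of intracellular microbes, were lower in 13 of 14 cases, with a median of -0.24. Iigp1 was at 13.4, 11 and 8.28 FPKM (-0.63), Irgm1 at 27.9, 23.6 and 19.1 FPKM (-0.53) and Igtp at 13.5, 10.3 and 9.26 FPKM (-0.50). In these 3 genes Tle4cKO was the lowest library. Gbp4 was lowest in the library labelled Tle3cKO instead, at 19.8, 10.8 and 16.9 FPKM (-0.21). The summed FPKM of the 10 defining macrophage markers was 4783, 4213 and 4444 in the 3 libraries. This sum rests mostly on C1qa, C1qb and C1qc. Fcgr1, Mertk, Cx3cr1 and Lyz2 were higher in Tle4cKO than in WT, and the other markers were lower. The part of cell content in the interferon group was not tested.

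The sequence that these genes are known for was searched in their promoters. Promoter windows from RefSeq (GRCm38.p6, 250 bases before to 50 after the start) were matched by symbol for 63 of the 85 genes and for 8404 of the 11088 tested. The element searched was GAAA, any 2 bases, GAAA, on both strands. It was found in 30 of the 63 (47.6%), in 4.03% of the tested genes with a window and in 3.99% of all 27025 symbols in the table. Of the 30 genes with the element 29 were lower in Tle4cKO, with a median of -0.26, and of the 33 without it 22 were lower, with a median of -0.12. Over all tested genes with a window the split was much smaller, with 193 of 339 lower (56.9%, median -0.03) where the element was present and 4030 of 8065 lower where it was not. All 9 matched genes of the GTPase group as listed here held it, beside 1 of 9 matched receptors and transducers. Ifi47 (-0.22), an IRG family member listed outside that group, did not hold it. The role of a gene and the element thus overlap in this list, and their parts in the split were not told apart. Irf7, with the lowest ratio among the regulators, did not hold these letters in its window. The 3 windows printed here belong to the genes with the lowest ratios among those with a single window that holds the element. They give the 250 bases up to the annotated start, 5′ to 3′ on the gene's strand, with the element in capitals. Oas1g is at chr5:120887614-120887863 on the minus strand, Ifit3 at chr19:34583279-34583528 on the plus strand and Irgm1 at chr11:48871421-48871670 on the minus strand.
Oas1g: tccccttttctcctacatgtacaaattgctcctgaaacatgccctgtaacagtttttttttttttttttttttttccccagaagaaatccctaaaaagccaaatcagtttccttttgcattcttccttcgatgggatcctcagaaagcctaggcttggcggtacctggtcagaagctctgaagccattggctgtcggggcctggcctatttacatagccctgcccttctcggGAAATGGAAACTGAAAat
Ifit3: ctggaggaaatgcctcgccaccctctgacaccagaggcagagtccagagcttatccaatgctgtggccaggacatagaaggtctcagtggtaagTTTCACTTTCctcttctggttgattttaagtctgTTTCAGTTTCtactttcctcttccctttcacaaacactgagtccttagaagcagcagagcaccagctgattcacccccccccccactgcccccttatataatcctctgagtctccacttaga
Irgm1: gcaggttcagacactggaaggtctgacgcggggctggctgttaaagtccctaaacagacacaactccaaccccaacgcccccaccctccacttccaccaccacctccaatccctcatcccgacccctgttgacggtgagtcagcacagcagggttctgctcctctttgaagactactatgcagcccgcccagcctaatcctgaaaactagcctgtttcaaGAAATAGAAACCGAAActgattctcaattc
In Oas1g and Irgm1 overlapping matches on the gene's strand form a triple GAAA block, whose first base lies 18 bases before the start in Oas1g and 30 bases before it in Irgm1. Ifit3 holds the element at 2 places on the opposite strand, so that the printed strand reads TTTC, any 2 bases, TTTC. Oas1g and Ifit3 have near-identical neighbouring copies, so the division of reads among these is uncertain. A match describes letters and does not show that a factor binds there.

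**Figure D3:**
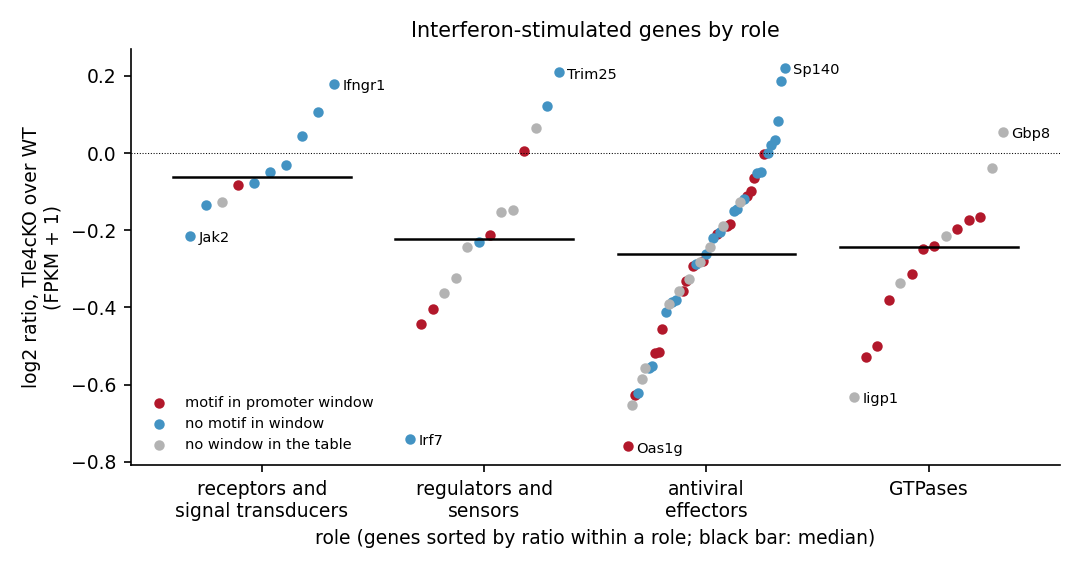
Log2 ratio of Tle4cKO to WT (FPKM + 1) for the 85 measured interferon-stimulated genes, sorted within 4 roles, with colour for the element in the promoter window and a black bar at each median. Receptors and transducers (median -0.06) sit nearer zero than effectors (-0.26) and GTPases (-0.24), and of the 30 red points 29 are below zero.

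Elements of other pathways were searched in the same way. The kappa B letters GGGANTTTC were in 10.3% of 29 matched NF-kB genes and in 20% of 25 chemokine and receptor genes, beside 1.2% of tested genes. The ER stress element (CCAAT, any 9 bases, CCACG) was in 25% of 36 matched genes of the unfolded protein response, beside 0.167%. Among 50 matched immediate early and stress genes, the AP-1 letters TGANTCA were in 6% and the cAMP element TGACGTCA in 8%, beside 6.4% and 3.71%. The AP-1 letters were in 17.5% of the interferon list, 17.2% of the NF-kB list, 13.9% of the unfolded protein response list and 12% of the chemokine list, each more than in the immediate early list. None of these motifs contains another. Of the 34 matched genes at least 2-fold lower, 5 held the interferon element (14.7%), beside 4.03% of tested genes with a window. None of the 10 matched genes at least 2-fold higher held it, and 10 genes are too few to set against that share.

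CC chemokines, which draw monocytes, lymphocytes and eosinophils into tissue, were lower in 9 of 13 cases, with a median of -0.20. Ccl17 (chromosome 8, 94810453 to 94812036), a ligand of CCR4 on T cells, was at 145, 47.5 and 68.2 FPKM (-1.08) and was the only chemokine past 2-fold. Ccl22, the other CCR4 ligand, was at 122, 89.3 and 94.9 FPKM (-0.36). Ccl5, which draws T cells and is also made by them, was at 283, 154 and 173 FPKM (-0.71). All 3 were highest in WT. The summed defining markers of dendritic cells, another source of Ccl17 and Ccl22, were at 337, 249 and 356 FPKM, and those of T, NK and innate lymphoid cells at 342, 349 and 339. Each of these sums rests mostly on 1 gene. Without Ccr7 the dendritic sum was 31.8, 33.2 and 39.1, and without Il7r the lymphoid sum was 4.91, 6.93 and 7.53. The part of these cells in the chemokine values was not tested. Monocyte-drawing ligands differed less, with Ccl2 at 51.2, 63.9 and 44.5 FPKM (-0.20), Ccl3 at 168, 217 and 145 FPKM (-0.21) and Ccl4 at 196, 202 and 166 FPKM (-0.24). Ccl6 and Ccl9 were the highest of the list, at ratios of 0.25 and 0.23.

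CXC chemokines were split, 6 of 11 being higher, and their median was 0.03. Cxcl13, which attracts B cells, was at 4.304, 3.52 and 2.56 FPKM (-0.58). The interferon-induced Cxcl10 was at 149, 119 and 125 FPKM (-0.25), while Cxcl9, induced mostly by interferon gamma, was at 17.8, 9.48 and 18.3 FPKM (0.03) and had another order of libraries. Cxcl2, which draws neutrophils, was at 1205, 1456 and 1168 FPKM (-0.04). Of 11 measured chemokine receptors 10 were higher, by a median of 0.15, and none reached 1.5-fold. Ccr6, a receptor of B and T cells, was at 5.897, 10.1 and 9.17 FPKM (0.56), and Cx3cr1, the fractalkine receptor of resident macrophages, was at 8.35, 7.64 and 11.4 FPKM (0.41). Ccr2, which takes monocytes into the tissue, was at 28.3, 12.3 and 28.3 FPKM, level between WT and Tle4cKO and less than these in the library labelled Tle3cKO.

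Cytokines were lower in 15 of 19 measured cases, with a median of -0.15. Hbegf, a growth factor for epithelium and muscle, was at 12.5, 13.97 and 7.66 FPKM (-0.64). Il27, a subunit of interleukin 27, was at 1.47, 0.5505 and 0.635 FPKM (-0.59), and its partner Ebi3 at 38.8, 31.1 and 39.2 FPKM (0.01). Il1b was at 815, 667 and 600.3 FPKM (-0.44) and the receptor antagonist Il1rn at 340.5, 309.6 and 291 FPKM (-0.23). The ligand and its antagonist were thus both lower. Tnf was at 68.1, 83.1 and 58.6 FPKM (-0.21), Il6 at 22.5, 16.8 and 20.2 FPKM (-0.15) and Il10, the main restraining cytokine of the gut, at 66.3, 89.95 and 61.1 FPKM (-0.12). Il1a was the highest of the list (0.19). Among enzymes and acute phase genes 5 of 8 were higher, led by Saa3 at 0.984, 3.45 and 2.22 FPKM (0.70) and Alox5, the 5-lipoxygenase of leukotriene synthesis, at 4.25, 12.2 and 6.86 FPKM (0.58). Lcn2, an iron-binding antimicrobial protein, was at 1.87, 1.32 and 0.977 FPKM (-0.54), and Ptgs2, the inducible cyclooxygenase, at 279.9, 260.0 and 228 FPKM (-0.30).

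NF-kB pathway genes were lower in 26 of 36 cases, with a median of -0.09, and with the scaling that leaves out the 5 kinds of gene the count was 23 and the median -0.04. No member reached 1.5-fold. All 5 subunits were lower, with Rel at 156, 136 and 127 FPKM (-0.30), Nfkb1 at 197, 161 and 162 FPKM (-0.28) and Rela at 67.8, 66.5 and 65.4 FPKM (-0.05). The inducible subunits thus differed more than Rela, which is made constitutively. Among inhibitors, Tnip1 was at 40.5, 35.3 and 32.5 FPKM (-0.31) and Nfkbia, the IkB that NF-kB itself induces, at 248, 242 and 210.0 FPKM (-0.24). The adaptor Myd88, which links Toll-like receptors to the pathway, was at 37.2, 32.3 and 31.96 FPKM (-0.21).

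Immediate early and stress genes, whose transcription starts within minutes of stimulation and also during tissue digestion, were lower in 50 of 63 cases, with a median of -0.20. Other scalings gave 43 to 48 lower. Of the AP-1 subunits 10 of 12 were lower, with Fosb at 127, 117 and 96.2 FPKM (-0.40) and Jun at 163, 152 and 136 FPKM (-0.26), but Junb at 730.2, 699 and 781 FPKM (0.10). Of the EGR, NR4A and KLF factors 16 of 18 were lower. Klf2, which holds inflammatory genes down, was at 33.9, 25.7 and 23.2 FPKM (-0.53), Klf6 at 334, 278 and 233 FPKM (-0.52) and Egr2 at 16.7, 12.7 and 11.3 FPKM (-0.53). In these 3 the library labelled Tle3cKO lay between the others. Of the feedback phosphatases and RNA-binding proteins 17 of 21 were lower, with Dusp16 at 14.95, 12.4 and 11.4 FPKM (-0.36) and Gadd45b at 318, 280.2 and 251.5 FPKM (-0.34), whereas Dusp4, a phosphatase for MAP kinases, was at 8.81, 12.7 and 13.4 FPKM (0.55). Heat shock genes were split. The HSP70 genes Hspa1a and Hspa1b had ratios of -0.42 and -0.41 and their partner Dnajb1 one of -0.55. The small heat shock gene Hspb1 was the only member past 1.5-fold, at 40.02, 59.2 and 63.7 FPKM (0.66).

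Macrophage identity genes had a median of -0.03 over 37 measured, with 23 lower, but 16 lower and a median of 0.02 under the scaling that leaves out the 5 kinds of gene. The defining genes were present at high level in both libraries. The complement component C1qa was at 1243, 1093 and 1150.4 FPKM (-0.11), the growth factor receptor Csf1r at 459, 406 and 387 FPKM (-0.25), Cd68 at 495, 501 and 483 FPKM (-0.04) and Fcgr1, the CD64 of the sort, at 33.3, 36.04 and 39.2 FPKM (0.23). Siglec5, the name the files use for Siglec-F, was at 2.9, 2.48 and 2.07 FPKM and Ly6c2 at 9.38, 5.98 and 6.52 FPKM (-0.46). Of the 3 sorting markers, CD64 was thus the most abundant transcript. Lyz2, whose promoter drives the Cre, was at 10.4, 11.7 and 11.3 FPKM (0.11), but its near-identical copy Lyz1 was at 476, 423 and 515 FPKM (0.11), so the division of reads between the copies is uncertain.

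Single identity genes stood apart more than the group. Id3, an inhibitor of helix-loop-helix factors, was at 60.0, 58.7 and 35.2 FPKM (-0.75), and Nr1h3, the oxysterol receptor LXR alpha, was at 17.3, 12.8 and 11.4 FPKM (-0.57). Both were lowest in Tle4cKO. On the higher side were Bhlhe41, a repressor of resident macrophages, at 3.63, 8.57 and 6.72 FPKM (0.74), Mef2c, a MADS-box factor, at 5.63, 7.78 and 9.36 FPKM (0.64), and Trem2, a lipid receptor, at 25.9, 30.3 and 38.6 FPKM (0.56). Trem2 was highest in Tle4cKO, while Bhlhe41 was highest in the library labelled Tle3cKO. The factors that set the lineage were level, with Spi1 (PU.1) at -0.02 and Cebpa at 0.01.

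Markers of long-lived macrophages, which persist near vessels and nerves without renewal from monocytes, were higher in 16 of 24 measured cases, by a median of 0.07, and 3 were at least 1.5-fold higher. Over all genes 49.4% were higher and 1.26% at least 1.5-fold higher. The scavenger receptor Cd163 was at 2.92, 8.98 and 5.94 FPKM (0.82), the lectin Cd209f at 0.635, 1.11 and 1.72 FPKM (0.74) and the ficolin Fcna at 2.04, 7.98 and 3.74 FPKM (0.64). All 3 are at low levels, where ratios spread widely, and Cd209f passed the level filter through Tle4cKO. The other receptors Lyve1 (0.55), Timd4 (0.52) and Folr2 (0.47) were higher as well, whereas Retnla had the lowest ratio of the list (-0.43) and Clec10a had one of -0.22. Of genes of monocytes and early stages 15 of 32 were higher, with a median of -0.03 that turned to 0.02 with the scaling that leaves out the 5 kinds of gene. Chil3, a chitinase-like lectin, was at 2.502, 0.989 and 0.08304 FPKM (-1.69), and S100a4, a calcium-binding protein, at 249.9, 209 and 168 FPKM (-0.57). The paired calgranulins went apart, with S100a9 at 84.01, 76.6 and 67.05 FPKM (-0.32) and S100a8 at 81.4, 93.5 and 102 FPKM (0.32).

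Several myeloid receptors had their highest value in WT. Sirpb1a, an activating receptor of the SIRP family, was at 10.6, 3.98 and 3.47 FPKM (-1.38) and Sirpb1b at 6.44, 3.84 and 3.09 FPKM (-0.86). Klra17, of the Ly49 lectin family, was at 16.9, 8.91 and 7.67 FPKM (-1.05), and Cd300lh, of the CD300 family, at 16.03, 0 and 0.0083 FPKM. In these families reads can be divided between similar copies, and the summed FPKM of the 8 Cd300 rows was 198, 181 and 199.6. That sum was level between WT and Tle4cKO and lower in the library labelled Tle3cKO, where Cd300lh was listed at 0. Cd300lh is a small part of the sum, so the sum cannot show whether its reads were divided differently. This was not tested. The Clec4 lectin receptors next to each other on chromosome 6 were lower in 7 of 8 cases, with a median of -0.34, with Clec4b1 at 21.6, 13.1 and 13.4 FPKM (-0.65) and Clec4a1 at 98.8, 104 and 70.7 FPKM (-0.48).

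Pattern recognition receptors were lower in 20 of 27 cases, with a median of -0.12, and Tlr7 and Tlr8 of the distal X run were the only ones past 2-fold. Nod1, a sensor of bacterial cell wall fragments, was at 7.22, 5.16 and 4.18 FPKM (-0.67) and Nod2 at 18.3, 13.3 and 14.2 FPKM (-0.35). Tlr9, which senses DNA in the same endosomes as Tlr7, was at 71.3, 68.6 and 64.3 FPKM (-0.15), and Unc93b1, which carries these receptors there, at 387, 322 and 348 FPKM (-0.15). Tlr2 and Tlr4, which sense bacterial surfaces, had ratios of 0.13 and -0.07. Complement genes were lower in 8 of 13 cases, near the share over all genes (50.6%). Their median was -0.06, or -0.01 with the scaling that leaves out the 5 kinds of gene. C4b had the lowest ratio, at 21.8, 19.1 and 13.7 FPKM (-0.63). Efferocytosis genes were higher in 16 of 20 cases, by a median of 0.11, where 49.4% of all genes were higher. The receptor Mertk was at 4.46, 7.65 and 6.17 FPKM (0.39) and its bridging ligand Gas6 at 17.8, 27.9 and 22.3 FPKM (0.31). Pros1, the other bridging ligand, was at 15.6, 17.2 and 11.2 FPKM (-0.45).

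Among matrix proteases 1 gene was past 2-fold in each direction. Mmp9 (chromosome 2, 164948219 to 164955849), which cuts gelatin and basement membrane, was at 13.3, 80.3 and 36.04 FPKM (1.37). It was thus lowest in WT and highest in the library labelled Tle3cKO. Mmp8, the collagenase of neutrophils, was at 2.72, 1.83 and 0.844 FPKM (-1.01), and another neutrophil gene, Retnlg, at 4.805, 4.55 and 2.05 FPKM (-0.93). Of the 7 neutrophil genes measured, 3 were higher and 4 lower, with a median of -0.13. Of the abundant metalloproteinases of these cells, Mmp13 was at 263, 272 and 239.7 FPKM (-0.13), Mmp12 at 223, 175 and 189 FPKM (-0.23) and Mmp19 at 390.4, 351 and 473 FPKM (0.28). Timp3, an inhibitor of metalloproteinases, was at 15.8, 20.2 and 11.6 FPKM (-0.41). Of 21 measured genes for lipid carriers and efflux, Apoc1 was past 2-fold, at 4.03, 4.94 and 1.17 FPKM (-1.21). Of its neighbours in the same cluster, Apoe, the abundant carrier of lipid, was at 9287, 8278 and 8850.5 FPKM (-0.07), Apoc4 at 0.629, 0 and 2.21 FPKM (0.98) and Apoc2 at 11.6, 21.4 and 16.9 FPKM (0.51). Plin2, which coats lipid droplets, was at 281, 324 and 370.3 FPKM (0.40).

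Ribosomal protein genes were higher in 76 of 77 cases, by a median of 0.09. The shift was small, and only Rpl26 reached 1.5-fold. Rpl26 at 26.4, 37.5 and 48.6 FPKM (0.86) and Rpl30 at 39, 37.8 and 53.8 FPKM (0.45) had the largest ratios and the lowest levels of the list, beside abundant members such as Rps21 at 1849, 1553 and 2172 FPKM (0.23). Genes of the unfolded protein response were higher in 38 of 46 cases, by a median of 0.12, and none reached 1.5-fold. The ER chaperone Hspa5 (BiP) was at 1843, 2082 and 2207 FPKM (0.26), and Pdia4, a disulfide isomerase, at 87.5, 84.7 and 104 FPKM (0.25). Derl3, an ER degradation factor that plasma cells express, had the largest ratio of the list, at 5.44, 5.81 and 7.87 FPKM (0.46). Ddit3, the CHOP factor, was at 64.4, 73.01 and 84.4 FPKM (0.38), while Sesn2, a target of ATF4, was at 34.2, 30.4 and 27.98 FPKM (-0.28). Genes of plasma cells, whose ER is large, were higher in the same library (Igj and Mzb1, below), and their part in the ribosomal and ER values was not tested.

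**Figure D4:**
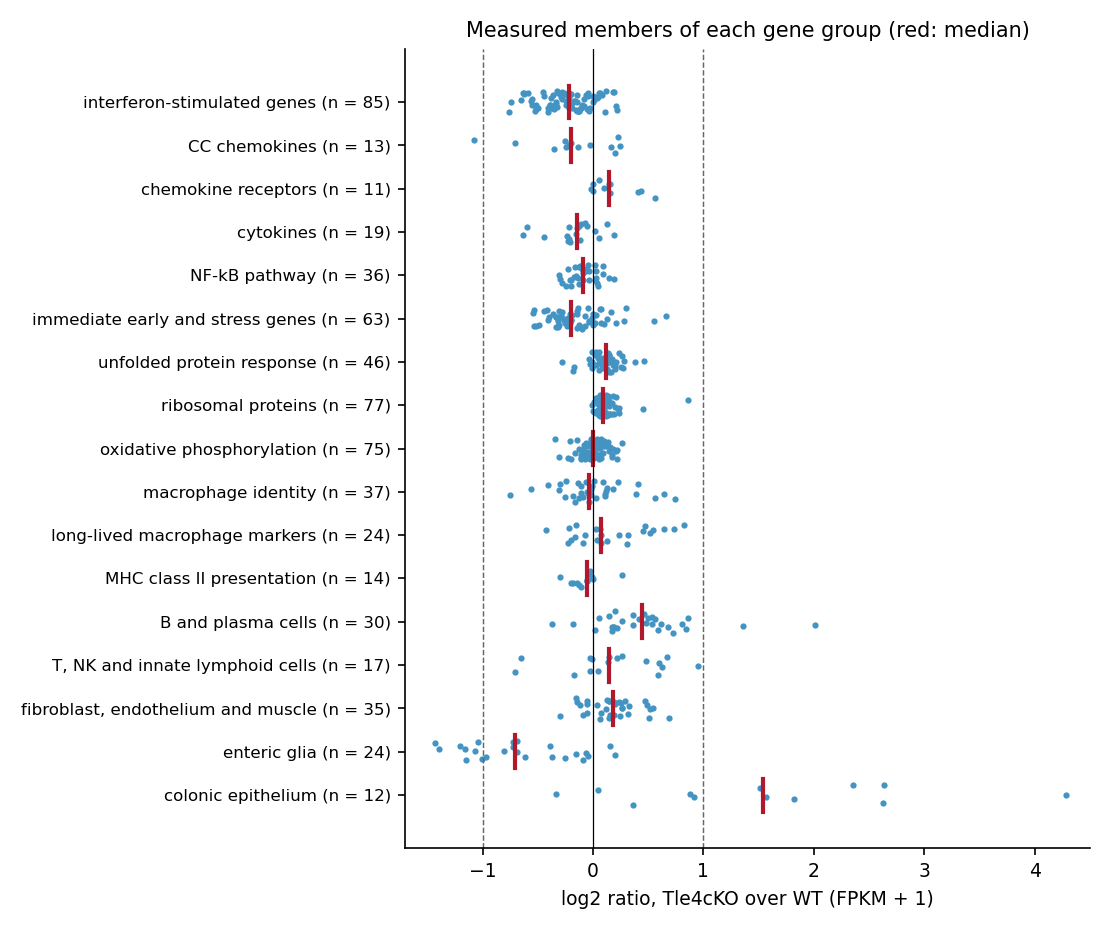
Log2 ratio of Tle4cKO to WT (FPKM + 1) for each measured member of 17 gene groups, with red bars at the medians and dashed lines at 2-fold. The enteric glia (median -0.71), colonic epithelium (1.54) and B and plasma cell groups (0.44) lie farthest from zero, and the ribosomal proteins form a narrow cluster above it (0.09).

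Genes of enteric glia, the support cells of the nerves in the gut wall, were lower. Of 37 listed, 24 were measured, of which 22 were lower, 15 of these at least 1.5-fold and 8 at least 2-fold, with a median of -0.71. Over all genes 50.6% were lower, 1.7% at least 1.5-fold and 0.487% at least 2-fold. With 2 neuronal genes added the median was -0.69, and this became -0.32 at a pseudocount of 5 and -0.16 at a mean of at least 5 FPKM. Scn7a (chromosome 2, 66673426 to 66784910), a sodium channel of non-myelinating glia, was at 16, 15.3 and 5.29 FPKM (-1.44). Gfap, the intermediate filament of glia, was at 8.92, 9.34 and 3.82 FPKM (-1.04). The library labelled Tle3cKO was level with WT in both. Cdh19, a cadherin of the neural crest lineage, was at 5.31, 6.59 and 1.74 FPKM (-1.20), and Chl1, an adhesion protein, at 3.65, 3.19 and 1.08 FPKM (-1.16). Prnp, the prion protein, was the most abundant of the 8, at 75.2, 67.5 and 33.4 FPKM (-1.15), and Cryab, a small heat shock protein, was at 20.4, 21.9 and 9.65 FPKM (-1.01). Prnp and Cryab are also made by other cells, among them muscle. The transcription factor Sox10, which defines the lineage, was under the level filter at 1.11, 1.17 and 0.253 FPKM, and S100b was so too, at 1.45, 1.64 and 0.514 FPKM. The summed FPKM of the 6 defining glial markers was 34.7, 33.9 and 11.9, and none of them was listed at 0.

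Further genes that glia express, chosen here after their values were seen, were also lowest in Tle4cKO. Fxyd1, a regulator of the sodium pump, was at 28.6, 24.7 and 11.4 FPKM (-1.26), Cadm4, an adhesion protein of Schwann cells, at 9.22, 8.96 and 3.898 FPKM (-1.06) and Lgi4, a secreted glial protein, at 5.34, 5.25 and 1.801 FPKM (-1.18). Gfra1, the GDNF receptor, was at 2.88, 1.98 and 0.727 FPKM (-1.17), and Gpr37l1, a glial receptor, at 3.02, 2.49 and 0.3105 FPKM (-1.62). Not every listed gene was lower. The potassium channel Kcnj10 was at 5.24, 4.905 and 5.06 FPKM (-0.04), Mbp at 32.2, 31.03 and 30.2 FPKM (-0.09) and Cnp at 10.7, 11 and 12.5 FPKM (0.20), all of which immune cells can express as well. Of 12 neuronal genes 2 were measured, Tubb3 (-0.15) and Uchl1 (0.26), and the others had means under 1 FPKM.

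Colonic epithelial genes were higher. Of 43 listed genes 12 were measured, 11 of them higher and 7 at least 2-fold higher, beside 49.4% and 0.198% of all genes. Most of those 12 were under 1 FPKM in WT and passed the level filter through Tle4cKO, so their count follows in part from the filter. The goblet cell genes led. Spink4 (chromosome 4, 40920056 to 40931395), a protease inhibitor, reached 0, 0.5599 and 18.6 FPKM, where 0 is a listed value. Retnlb, a secreted protein active against bacteria, had 0, 0 and 5.23 FPKM. Agr2, the isomerase that folds mucins, was at 0.468, 0.971 and 8.096 FPKM (2.63), and the mucin Muc2 at 0.128, 0.256 and 2.996 FPKM (1.82). The keratins Krt8, at 0.1501, 0.337 and 4.899 FPKM (2.36), Krt18 (1.56) and Krt19 (1.52) had the same pattern. Epcam, found on all gut epithelium, was at 1.195, 2.02 and 3.14 FPKM (0.91). Tspan8 was the exception, at 3.14, 3.96 and 2.29 FPKM (-0.33). The goblet cell peptide Tff3 was listed at 0 in WT and Tle4cKO. The 13 defining markers summed to 2.80, 6.88 and 44.3 FPKM, with 4, 1 and 1 of them listed at 0. The median over the measured genes was 1.54, and it was 0.40 with no filter on low values, 3.66 at a pseudocount of 0.1 and 0.49 at 5. Some genes outside the lists were picked here after their values were seen, and they passed the level filter through Tle4cKO. Smim22 and Klk1 reached 3.12 and 2.03 FPKM in Tle4cKO and are listed at 0 for WT. Mptx1, a pentraxin of the gut, was at 0.109, 0.113 and 2.84 FPKM (1.79).

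Genes of B and plasma cells were higher in 28 of 30 measured cases, by a median of 0.44 (0.26 at a pseudocount of 5), with 9 at least 1.5-fold and 2 at least 2-fold higher. Over all genes 49.4% were higher, 1.26% at least 1.5-fold and 0.198% at least 2-fold. Igj (chromosome 5, 88519809 to 88527897), the J chain that joins IgA and IgM, was at 46.9, 57.9 and 192 FPKM (2.01). Mzb1, a chaperone of immunoglobulin assembly, was at 6.48, 6.58 and 18.2 FPKM (1.36), and Tnfrsf17, the survival receptor BCMA of plasma cells, at 0.705, 0.845 and 2.1 FPKM (0.86). These 3 plasma cell genes were higher in Tle4cKO than in both other libraries, and Tnfrsf17 passed the level filter through Tle4cKO. The 3 B cell genes named next had smaller ratios, but the groups as a whole were close. The 18 measured B cell genes had a median of 0.42 and the 12 plasma cell genes one of 0.44. Cd79a, a chain of the B cell receptor, was at 19.5, 33.9 and 29.9 FPKM (0.59), Ms4a1, known as CD20, at 4.41, 6.805 and 6.86 FPKM (0.54) and the coactivator Pou2af1 at 7.84, 12.8 and 14.9 FPKM (0.84). In these 3 genes, too, WT was the lowest library. Pou2f2, a factor that macrophages also express, was lower, at 10.5, 11.05 and 7.91 FPKM (-0.37), as was Prdm1 (-0.18). The 8 defining markers summed to 141, 192 and 340 FPKM, and without Igj to 93.9, 134 and 147.

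Of 36 genes of T, NK and innate lymphoid cells 17 were measured, and 11 of these were higher, with a median of 0.14. The T cell receptor chain Cd3e was at 0.401, 1.55 and 1.705 FPKM (0.95) and the checkpoint receptor Ctla4 at 3.997, 4.33 and 6.69 FPKM (0.62). Cd3e passed the level filter through Tle4cKO. Its partners Cd3d, at 0.63, 1.07 and 1.26 FPKM, and Cd3g, at 0.748, 0.844 and 0.956 FPKM, were under it. Il22, a cytokine of innate lymphoid cells, was lower, at 5.95, 6.69 and 3.43 FPKM (-0.65). Smooth muscle genes were higher in 9 of 9 cases, by a median of 0.26, with Actg2, the enteric actin, at 4.07, 6.75 and 7.19 FPKM (0.69) and Tagln at 12.7, 23.5 and 18.2 FPKM (0.49). Glial and muscle genes thus lay on opposite sides of WT, though both come from the gut wall. Fibroblast genes were higher in 8 of 14 cases and endothelial genes in 10 of 12. The stromal markers summed to 215, 258 and 243 FPKM. Eosinophil markers summed to 3.52, 3.07 and 3.61, with Epx listed at 0 in all 3 libraries, and neutrophil markers to 25.9, 23.9 and 21.4. Whether these cell contents bear on the lists of macrophage genes was not tested.

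**Figure D5:**
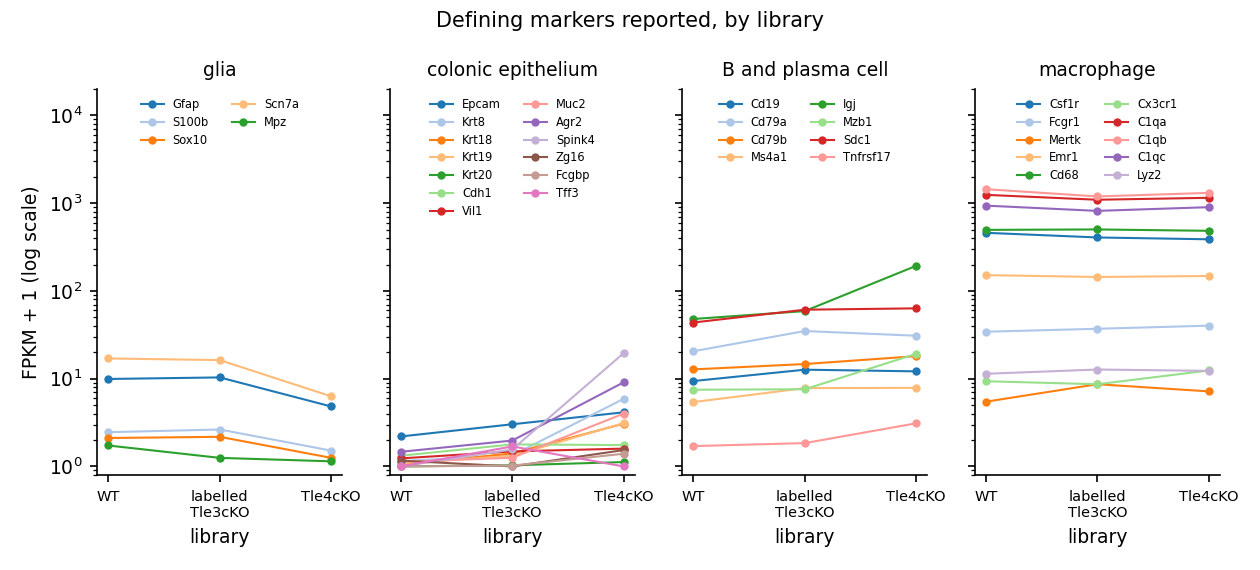
FPKM + 1 (log scale) of defining markers of 4 cell types in the 3 libraries, each an independent pool joined by a line only to follow a gene. Glial markers are lowest and epithelial markers mostly highest in Tle4cKO, Igj and Mzb1 are highest there among B and plasma cell markers, and macrophage markers differ little.

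Some of the largest ratios belong to rows whose reads can be moved between copies. Amd2 was at 16.2, 10.4 and 0.0523 FPKM (-4.03), but this row and the row that joins Amd1 and Amd2 summed to 27.7, 27.4 and 26.8 FPKM. The same held for Hist2h3c1 and Hist2h3c2 (3.48, 3.66 and 3.14), for Hbb-b1 and Hbb-bs (2.93, 3.20 and 2.60) and for Eif3j1 and Eif3j2 (58.6, 60.3 and 58.7). In each of these 4 pairs the sums of WT and Tle4cKO differed by at most -0.13 on the log2 scale, so the sums do not show the 2-fold differences of the single rows. Such rows make up 3 of the 22 higher and 4 of the 54 lower genes. Small nucleolar and Cajal body RNAs, too short to be measured well from fragmented RNA, gave the extremes on both sides. The file of WT lists Snora23 at 0 and Snora81 at 730.3 FPKM, and that of Tle4cKO lists them at 284.9 and 0 FPKM. Scarna6 had 6.71 FPKM in WT and is listed at 0 for Tle4cKO. Gm7120, an unnamed gene picked out after its values were seen, was at 48.7, 31.6 and 11.8 FPKM (-1.96), the lowest ratio where the mean was at least 5 FPKM and both libraries reached 1 FPKM. Cyr61, a matricellular protein, and Rcan1, an inhibitor of calcineurin, were at 66.99, 71.1 and 33.3 FPKM (-0.99) and 41.5, 52.1 and 21.3 FPKM (-0.93), and both were lowest in Tle4cKO.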

How the data were processed

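RNA of macrophages sorted from colons of WT, Tle3cKO and Tle4cKO mice was extracted with TRIzol from pooled animals and sequenced on an Illumina instrument, per the labels' protocols. Reads were aligned to mm10 with TopHat2 2.1.0 and quantified with Cufflinks 2.2.1, per the submitters' processing notes. The authors deposited 1 FPKM value per gene and library, in 23997 rows. No source used here gives the number of reads. Steps between low FPKM values put the depth of Tle4cKO at 1.21 times that of WT. FPKM totals were 610714 (WT), 569961 (labelled Tle3cKO) and 598023 (Tle4cKO). TopHat2 and Cufflinks divide or drop reads that match several places, which bears on near-identical copies and on short RNAs.

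From these values, rows were joined on the gene name, kept at a mean of at least 1 FPKM over WT and Tle4cKO, and compared as log2((FPKM + 1)/(FPKM + 1)). With 1 library per genotype no test was run. The 11088 genes and the 34 gene lists were chosen with earlier results of these data known, and a list is described by its counts and median beside those of all genes. Named genes were Tle4 and its family, the 20 highest and 20 lowest ratios with a mean of at least 5 FPKM (leaving out clone names, small RNAs and receptor or immunoglobulin segments), the 10 largest FPKM differences in each direction, the members of each role past 2-fold with up to 4 of the largest differences, and the cell type markers. Other genes were named for their role or after their values were seen. Some members of the lists are not reported here by name, and are left out of the plot of markers. Promoter windows were taken from RefSeq (GRCm38.p6), and motifs were searched by exact letters on both strands.

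Python 3.11.15, numpy 2.4.6, pandas 2.3.3 and matplotlib 3.10.9 were used. The steps were tested on simulated data with known ratios. The alternatives were pseudocounts of 0.1 and 5, 3 other filters, 3 other scalings and thresholds of 1.5-fold and 3-fold.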

Additional observations from a re-analysis of the deposited data

How the results depend on the processing

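No paired analysis was possible because each genotype has 1 library. For the same reason no replicate could be left out, and the data limit every value to a description of these pools. The numbers of genes at least 2-fold higher and lower, 22 and 54 as reported, were 60 and 101 with a pseudocount of 0.1, 7 and 15 with a pseudocount of 5, and 6 and 20 at a mean of at least 5 FPKM. At a threshold of 1.5-fold they were 140 and 189, and at 3-fold 14 and 13. They were 32 and 62 with no filter, 18 and 54 with the filter over all 3 libraries, 22 and 49 with equal totals, 22 and 54 with the median ratio, and 23 and 43 with equal totals after leaving out immunoglobulin, T cell receptor, small RNA, ribosomal protein and histone genes. The colonic epithelium median, 1.54 as reported, was 3.66 with a pseudocount of 0.1, 0.49 with one of 5, 0.40 with no filter and 0.36 at a mean of at least 5 FPKM. The B and plasma cell median was 0.26 with a pseudocount of 5. The glia and nerve median, -0.69 as reported, was -0.32 with a pseudocount of 5 and -0.16 at a mean of at least 5 FPKM. Fewer genes pass the stricter filter, and a larger pseudocount shrinks the ratios of low genes. Of 36 group medians followed, 27 kept their sign in every setting run; the exceptions were the Groucho family, all genes, cholesterol and lipid, costimulation, lysosome, macrophage identity, matrix protease, monocyte, and granulocyte and mast cell genes. Of 322 named genes 318 kept theirs, all but Cd68, Emr1, Il7r and Nkg7. Depth limits the low genes most: below about 5 FPKM, ratios spread widest among genes under 100 FPKM.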

Other observations

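Groups of housekeeping and metabolic genes were close to level. Of 75 measured genes of oxidative phosphorylation 38 were higher and 37 lower, with a median of 0.00074 as deposited and a range of -0.35 to 0.26, and none reached 1.5-fold. Glycolysis and hypoxia genes were higher in 21 of 31 cases, with a median of 0.07, and Hk3, the myeloid hexokinase, had the highest ratio (0.22). Antioxidant and iron genes were lower in 22 of 33 cases, with a median of -0.08, among them Nqo1, a target of NRF2, at 41.03, 32.9 and 35.04 FPKM (-0.22). Lysosomal genes ranged from -0.24 to 0.58. Atp6v0d2, a subunit of the proton pump, was the highest of these at 2.08, 3.77 and 3.604 FPKM (0.58), and Hexa, a hydrolase, was the lowest at 292, 233 and 247 FPKM (-0.24). Genes of the cell cycle were measured in 38 of 46 cases and higher in 25, with a median of 0.08, and Cdc20, an activator of the anaphase complex, was the only member past 1.5-fold at 1.01, 1.74 and 2.54 FPKM (0.82).

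Antigen presentation by MHC class II had 13 of 14 genes lower, with a median of -0.05. With the scaling that leaves out the 5 kinds of gene, 9 were lower. The abundant H2-Aa was at 12118, 10500.3 and 10692 FPKM (-0.18), while H2-DMb2, a peptide-loading factor, was at 62.95, 79.7 and 75.5 FPKM (0.26). MHC class I genes were higher in 9 of 16 cases, with the immunoproteasome subunit Psmb9 at 36.2, 37.6 and 44.4 FPKM (0.29) and the peptide transporter Tap2 at 41.97, 44.2 and 50.3 FPKM (0.26). Both of these are interferon-inducible, and both were on the other side of WT from most of the interferon list. Costimulatory genes had no common direction, with Cd86 at 367, 346 and 320.3 FPKM (-0.20) and Pdcd1lg2, the ligand PD-L2, at 15.4, 14.2 and 19.8 FPKM (0.35). Bcl2a1d, a survival gene with near-identical copies, was at 490.3, 380.1 and 359 FPKM (-0.45), and Bad, which promotes cell death, was at 7.495, 9.33 and 10.7 FPKM (0.46).

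Another neighbouring family on chromosome 6 was higher. All 6 measured Gimap genes, GTPases found mainly in lymphocytes and endothelium, were higher, with a median of 0.82 and a range of 0.40 to 1.31. Gimap6 was at 9.297, 13.3 and 12.6 FPKM (0.40), Gimap3 at 3.77, 5.66 and 8.17 FPKM (0.94) and Gimap9 at 0.231, 0.778 and 2.05 FPKM (1.31). WT was the lowest library in each, and Gimap9 passed the level filter through Tle4cKO. The Gimap genes gave the highest median of any run of 8 neighbouring genes, 0.64. Of 23 measured dendritic cell genes 15 were higher and 8 lower, with a median of 0.11 and a range of -0.37 to 0.72. Itgae, the integrin CD103 of dendritic cells and gut T cells, was at 8.74, 10.5 and 15.1 FPKM (0.72), and Ly6d, found on plasmacytoid cells and B cell precursors, at 7.705, 8.13 and 13.03 FPKM (0.69). Clec9a and Xcr1, which mark cross-presenting dendritic cells, had ratios of 0.44 and 0.31, and Siglech, of plasmacytoid cells, had one of -0.15.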
